A study of Mus musculus with 4 samples.

Results

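The 9 genes described here mark the GABAergic lineage of the embryonic forebrain, and they were taken by symbol from the 26433 genes of a bulk RNA sequencing table of E15 mouse tissue. They are Gad1, Gad2, Dlx1, Dlx2, Dlx5, Dlx6, Nkx2-1, Lhx6 and Sst, and each matched 1 row. The rule takes them by name and uses no measured value, but it was written with earlier results of these data known. The libraries came from WT mice and from cKI f/+ mice (hereafter cKI), which are labelled as strain C57BL/6. The cKI mice carry human SERPINA3, driven by the CAG promoter in the Rosa26 locus behind a floxed stop cassette, and Nestin-Cre removes the stop in neural progenitors and their progeny. The WT mice were littermates. Founders of the line had been bred with B6D2F2 mice before the cross to Nestin-Cre mice of C57BL/6 background. The libraries are named KI2 and KI3 for cKI mice and WT1 and WT3 for WT mice, as in the deposited table, and the labels do not say whether a library pools embryos.

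GABAergic neurons of the cortex are not made in the cortex. They are born in the ganglionic eminences of the ventral telencephalon and migrate tangentially into the pallium, where the glutamatergic neurons arise locally. The homeobox genes Dlx1 and Dlx2 act in subpallial progenitors and new neurons, and Dlx5 and Dlx6 act after them. Nkx2-1 specifies the medial ganglionic eminence, and cells that leave it for the cortex lose Nkx2-1 and keep Lhx6, and a part of them later make the peptide somatostatin, encoded by Sst. Gad1 and Gad2 encode the enzymes that make GABA from glutamate. A dissected cortex therefore holds GABAergic transcripts of immigrant cells, and any ventral tissue in the dissection adds those of progenitors. The sample titles call the tissue cortex and the study's methods call it telencephalic, so the genes were read as a measure of ventral-derived cells in the 4 libraries.

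The 4 libraries held between 17423512 and 18119444 counts on genes. A count of 3, taken as the floor of detection, was worth 0.166 to 0.172 CPM (counts scaled to library size), and this covers counting error only. The tissue label was checked on marker genes. Neurod6, a marker of cortical glutamatergic neurons, lay between 964 and 1124 CPM. Of 9 listed markers of the diencephalon and brainstem that have a row, 7 had no more than 3 counts in any library, among them Otp, Gbx2 and Hoxb3. The remaining ones were well above the floor, Lhx9 with 22.6 to 34.2 CPM and Tcf7l2 with 7.95 to 11.7 CPM. Xist had 13223 and 11882 counts in cKI and 5 in each WT library, and Ddx3y of chromosome Y had 0 counts in both cKI libraries and 364 and 393 in WT. Embryo sex and genotype thus cannot be told apart in any comparison below. In bulk tissue, fewer cells of a type and less RNA per cell also cannot be told apart.

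Upstream sequence is shown for 3 genes whose values are set side by side below. Sst is the most abundant member per length, Dlx2 is the only member with both cKI libraries below both WT libraries, and Dlx6os1 is a noncoding RNA transcribed through the Dlx5 and Dlx6 locus. RefSeq windows of GRCm38.p6, from 250 bases before to 50 bases after a transcription start, were at hand for 7 of the 9 members, that is for all but Dlx5 and Dlx6, with 9 windows in all. In the Sst stretch of 120 bases, at chr16:23890845-23890964 on the minus strand, capitals mark the palindrome TGACGTCA, the cAMP response element for which this promoter is known. In the Dlx6os1 stretch of 150 bases, at chr6:6869534-6869683 on the minus strand, capitals mark TAATTA, the core bound by many homeodomain proteins. The Dlx2 stretch of 150 bases, at chr2:71546755-71546904 on the minus strand, holds neither and has no capitals. Each is written from 5′ to 3′ and ends at the base before the start.
Sst: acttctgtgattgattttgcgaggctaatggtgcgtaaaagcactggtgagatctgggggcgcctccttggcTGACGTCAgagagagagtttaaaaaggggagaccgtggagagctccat
Dlx6os1: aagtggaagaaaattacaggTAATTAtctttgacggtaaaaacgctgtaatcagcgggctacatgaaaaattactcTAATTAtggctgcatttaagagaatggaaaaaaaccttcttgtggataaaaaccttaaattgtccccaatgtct
Dlx2: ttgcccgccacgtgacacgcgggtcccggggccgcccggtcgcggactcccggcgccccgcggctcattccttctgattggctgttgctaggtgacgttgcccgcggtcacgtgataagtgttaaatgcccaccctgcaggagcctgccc

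The palindrome of Sst began 48 bases before the start, and those of Dlx6os1 began 130 and 74 bases before it. Searched on both strands, TGACGTCA stood in 1 of the 9 member windows and in 1.79% of all 32851 windows of the table. TAATTA stood in 0 of the 9 member windows and in 5.29% of all windows. TATAAA, the core letters of a TATA box, stood in 2 of the 9 member windows, 1 of Gad1 and 1 of Lhx6, and in 13.6% of all windows. The member windows held 48.7% to 69.3% G and C, the highest share in Dlx1, against a median of 52.7% over all windows. A match is a stretch of letters and was not tested as a binding site.

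Between cKI and WT libraries, 0 of the 9 GABAergic genes were called differentially expressed by edgeR's quasi-likelihood test at a Benjamini-Hochberg adjusted p under 0.05, and their adjusted p lay between 0.777 and 0.995. Over all 15786 genes tested, 0.12% were called, 0.0697% as higher and 0.0507% as lower in cKI. The 2 groups overlapped for 7 members and for 65.9% of all tested genes. The median log2 fold change of the 9 genes was -0.15, where that of all tested genes was 0.00, and 6 of the 9 lay below 0, as did 48.8% of all genes. At an unadjusted p under 0.05 there were 2 members, Dlx2 with lower and Nkx2-1 with higher values in cKI, where 4.6% of all genes passed, 2.34% as lower and 2.26% as higher. All 9 members passed the filter on low counts, but Nkx2-1 passed it only through the cKI libraries, where it is higher, so its p and interval are given as a description. With 2 libraries against 2, an exact permutation test of one gene cannot go below a two-sided p of 0.333, so every p here rests on the spread that edgeR shares across genes. Nothing in the labels says whether the libraries of a group came from separate embryos, and the p-values measure the spread between these libraries, which may be technical.

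**Figure D1:**
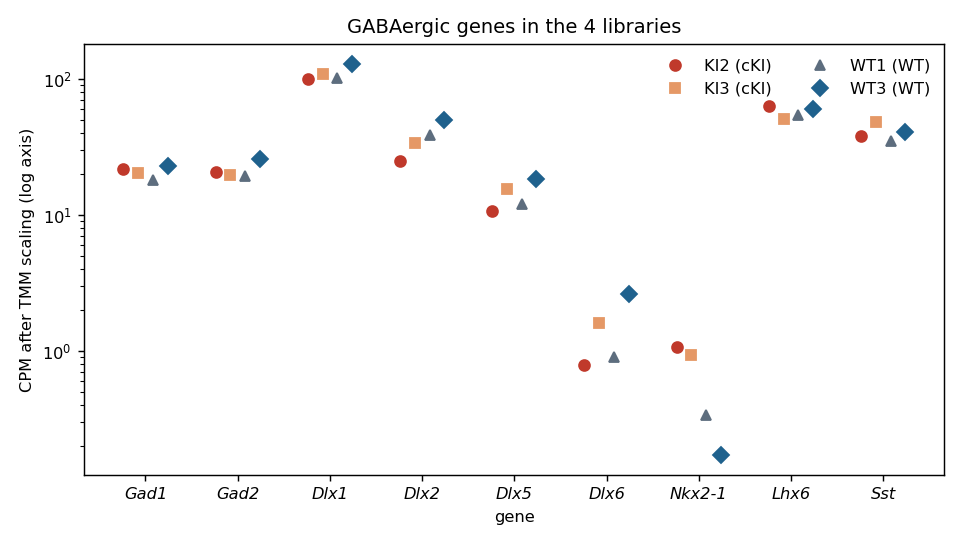
Level of each of the 9 GABAergic genes in CPM after TMM scaling, on a log axis, with 1 point for each of the 2 cKI and 2 WT libraries and no error bars. The groups overlap for 7 genes, and stand apart for Dlx2, with cKI lower, and for Nkx2-1, with cKI higher and at most 1.08 CPM.

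Per length, the members differed by far more than the libraries did. On the FPKM scale (CPM per kilobase of annotated exon), Sst was highest with 55.9 ± 7.72 (SD over the 4 libraries), followed by Dlx1 with 20.2 ± 2.56. Dlx2 with 12.8 ± 3.60 FPKM and Lhx6 with 11.8 ± 1.10 FPKM came next and did not differ beyond their spread, since their library values overlapped. Dlx5 stood at 6.24 ± 1.53, Gad2 at 3.63 ± 0.53 and Gad1 at 2.72 ± 0.27 FPKM, and between these neighbours, as between Lhx6 and Dlx5, the values of the 4 libraries did not overlap. Dlx6 with 0.63 ± 0.36 and Nkx2-1 with 0.22 ± 0.16 FPKM were lowest and overlapped. The order thus ran from Sst and Dlx1 through Dlx2, Lhx6 and Dlx5 to the enzymes, with Dlx6 and Nkx2-1 at the bottom. The reason for this order was not tested. Exon lengths were the union of all annotated exons, from 721 bases for Sst to 7639 bases for Gad1, and transcripts that use fewer exons would have higher values.

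The levels of both enzymes of GABA synthesis overlapped between the groups. Gad1 (ENSMUSG00000070880, chromosome 2 of GRCm38 from 70553072 to 70602014, plus strand) had 21.7 and 20.2 CPM in the libraries KI2 and KI3 and 18.1 and 23.0 in WT1 and WT3. The WT libraries enclosed both cKI libraries, and the log2 fold change was 0.03 (95% interval -0.28 to 0.34). Gad2 (ENSMUSG00000026787, chromosome 2 from 22622205 to 22693874, plus strand) had 20.7, 19.6, 19.2 and 25.9 CPM in the same order. WT3 stood above the other three, which lay close together, and the log2 fold change was -0.16 (95% interval -0.50 to 0.18). The ratio of Gad1 to Gad2 CPM was 1.05 and 1.03 in cKI and 0.947 and 0.889 in WT. This ratio was not tested, and no share over other pairs of genes was computed. The ratio of Sst to Lhx6, formed in the same way, overlapped, with 0.604 and 0.942 in cKI and 0.638 and 0.683 in WT.

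Lhx6 and Sst, which mark cells derived from the medial ganglionic eminence, overlapped between the groups as well. Lhx6 (ENSMUSG00000026890, chromosome 2 from 36081953 to 36105408, minus strand) had 62.5 and 50.7 CPM in the libraries KI2 and KI3 and 54.5 and 59.9 in WT1 and WT3. The highest and the lowest library were both cKI, and the log2 fold change was -0.02 (95% interval -0.27 to 0.24). Sst (ENSMUSG00000004366, chromosome 16 from 23889581 to 23890844, minus strand) had 37.7, 47.8, 34.8 and 40.9 CPM in the same order, with WT3 between the cKI libraries. Its log2 fold change was 0.18 (95% interval -0.12 to 0.47). The intervals of Lhx6, Sst, Gad1 and Gad2 each left out a log2 fold change as low as that of Dlx2, given below. The interval of Dlx2, -0.95 to -0.23, overlapped those of Lhx6, Gad1 and Gad2 but not that of Sst. No difference between members was tested.

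Nkx2-1 (ENSMUSG00000001496, chromosome 12 from 56531958 to 56536908, minus strand) stood at the edge of detection. It had 19 and 17 counts in KI2 and KI3 and 6 and 3 in WT1 and WT3, which is 1.08, 0.938, 0.340 and 0.172 CPM. Both cKI libraries lay above both WT libraries, as for 17.3% of all tested genes. Summed over libraries and scaled for depth, 36 counts against 9 gave a ratio of 3.92 with an exact 95% interval of 1.85 to 9.26, which covers counting error only. The log2 fold change of 1.94 ± 0.53 (SE) was not called (adjusted p = 0.802, edgeR's quasi-likelihood test), nor was it without the filter (adjusted p = 0.889, edgeR). Genes of the subpallial list, described below, that were too low to be tested went both ways. Lhx8, another gene of the medial ganglionic eminence, had 5 counts in KI2 and 0 in the other libraries. Nkx6-2 had 3 counts in WT1 and 0 in the others, and Gsx1 had 1 and 0 counts in cKI and 4 and 5 in WT.

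The 4 Dlx genes shared a pattern across libraries that did not follow genotype alone. All of them were lowest in KI2 and highest in WT3, an order found in 7.52% of tested genes, where KI2 was lowest in 21.1% and WT3 highest in 25.8%, and KI3 and WT1 lay between. The pattern was noticed in these data and is given as a description, and the genes of a Dlx pair share regulation by intergenic enhancers, so they are not independent.

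Dlx2 (ENSMUSG00000023391, chromosome 2 from 71543408 to 71546754, minus strand) had 24.8 and 33.6 CPM in the libraries KI2 and KI3 and 38.5 and 49.5 in WT1 and WT3. It was the only member with both cKI libraries below both WT libraries, as for 16.9% of all tested genes. The mean was 29.2 ± 6.22 CPM (SD, n = 2) in cKI and 44.0 ± 7.76 (SD, n = 2) in WT. The log2 fold change was -0.59 ± 0.16 (SE) and was not called (adjusted p = 0.777, edgeR's quasi-likelihood test). The estimate depended on single libraries. The log2 fold change was -0.83 without KI3, -0.76 without WT1, and -0.40 without KI2 or without WT3. KI3 and WT1 are the libraries of the 2 groups nearest to each other, so leaving out either widens the gap. Each of these fits leaves 1 library in a group, with no spread of its own.

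Dlx1 (ENSMUSG00000041911, chromosome 2 from 71528113 to 71533981, plus strand), which lies 9426 bases from Dlx2, was steadier. It had 98.6, 108, 101 and 129 CPM in KI2, KI3, WT1 and WT3, with KI3 above WT1, and a log2 fold change of -0.15 (95% interval -0.41 to 0.10). The ratio of Dlx2 to Dlx1 CPM was 0.252 and 0.311 in the cKI libraries and 0.381 and 0.383 in WT, so both cKI libraries lay below both WT libraries. This ratio was chosen after the values were seen and was not tested.

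Dlx5 (ENSMUSG00000029755, chromosome 6 from 6877805 to 6882085, minus strand) had 10.7 and 15.5 CPM in the libraries KI2 and KI3 and 11.96 and 18.3 in WT1 and WT3. Dlx6 (ENSMUSG00000029754, chromosome 6 from 6863334 to 6868568, plus strand) had 14, 29, 16 and 46 counts, or 0.795, 1.60, 0.907 and 2.64 CPM. In both genes KI3 lay above KI2 and WT3 above WT1, and the groups overlapped. The log2 fold changes were -0.21 (95% interval -0.72 to 0.31) for Dlx5 and -0.56 (95% interval -1.75 to 0.63) for Dlx6. Dlx6os1, whose gene overlaps Dlx6 on the opposite strand without sharing exonic bases in the annotation and whose upstream sequence is shown above, had 7.32, 11.6, 10.7 and 18.9 CPM. It followed the order of Dlx5 and Dlx6, and its log2 fold change was -0.64 ± 0.28 (SE; adjusted p = 0.969, edgeR's quasi-likelihood test). It outnumbered Dlx6 by 7.15 to 11.7 times in CPM.

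The replicate spread of the members was wider than usual. The biological coefficient of variation that edgeR fitted lay above the trend for genes of the same abundance in 8 of the 9 members, all but Nkx2-1, and in 28.9% of all tested genes. It was 16.1% against a trend of 10.9% for Dlx5 and 33.4% against 20.8% for Dlx6. For Lhx6 it was 8.34% against 7.42%. From the lowest to the highest of all 4 libraries, Dlx2 spanned 1.995-fold, Dlx5 1.72-fold and Dlx6 3.32-fold. Lhx6 spanned 1.23-fold, Gad1 1.27-fold, Dlx1 1.31-fold, Gad2 1.35-fold and Sst 1.37-fold, so Dlx1 did not stand apart from the members outside the Dlx genes. Nkx2-1 spanned 6.26-fold on few counts. The median of all tested genes was 1.22-fold. These spans include any difference between the genotypes. Within cKI and within WT, Dlx2 spanned 1.35-fold and 1.29-fold, Dlx5 1.45-fold and 1.53-fold, and Dlx6 2.01-fold and 2.91-fold. In the same order, Lhx6 spanned 1.23-fold and 1.10-fold, and Gad1 1.07-fold and 1.27-fold.

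**Figure D2:**
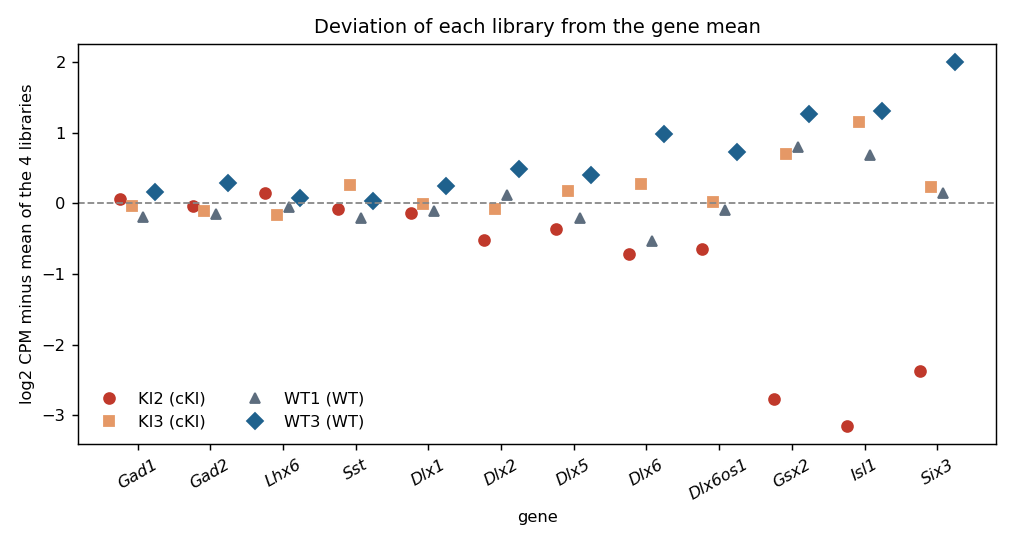
Deviation of each library from the mean of the 4 libraries in log2 CPM, with 0.5 counts added, for 8 members, for Dlx6os1 and for 3 subpallial genes chosen after their values were seen. Gad1, Gad2, Lhx6 and Sst span narrower ranges than Dlx2, Dlx5 and Dlx6. The Dlx genes and Dlx6os1 run from KI2 at the bottom to WT3 at the top, Dlx1 over a narrower range than Gad2 or Sst. Gsx2, Isl1 and Six3 drop in KI2 to 2, 1 and 5 counts.

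A few genes of subpallial progenitors and of the striatum with low counts differed widely between libraries. Gsx2, a progenitor factor of the lateral ganglionic eminence, had 2 and 28 counts in the libraries KI2 and KI3 and 29 and 40 in WT1 and WT3. Isl1, which acts in striatal neurons, had 1, 30, 21 and 32 counts, and Six3, which acts in striatal precursors, had 5, 34, 31 and 112. In these 3 genes KI2 stood alone at the bottom, while KI3 lay close to WT1 for Gsx2 and Six3 and between WT1 and WT3 for Isl1. The 3 genes were put together, and Isl1 was named, after their values were seen. Summed, the 3 genes reached 0.454, 5.08, 4.59 and 10.6 CPM, so KI2 held 8.78% and WT3 held 204% of the mean over libraries. The whole lists they come from varied far less, with 90.4% in KI2 and 108% in WT3 for the subpallial list and 97.9% and 108% for the striatal list. KI2 was the lowest library for 7 of 9 tested subpallial and 6 of 12 tested striatal genes, and not for Drd1, Rgs9 or Ppp1r1b. None of the 3 was called with all libraries (adjusted p = 0.969 for Gsx2 and Six3 and 0.985 for Isl1, edgeR's quasi-likelihood test). Without KI3, the log2 fold changes of Gsx2 and Six3 were -4.04 and -3.82, and without WT1 that of Six3 was -2.56. Such fits leave 1 library in a group, and that without KI3 sets KI2 alone against WT.

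The other genes of the lineage were described by lists of 53 genes in all. Of 12 subpallial transcription factors and Dlx antisense RNAs, 9 were tested, 0 were called and 8 lay below 0, with a median log2 fold change of -0.18. Meis2, a homeobox factor of the lateral ganglionic eminence that cortical cells also express, had 351 and 365 CPM in cKI and 424 and 410 in WT, a log2 fold change of -0.22 ± 0.07 (SE; unadjusted p = 0.0138 and adjusted p = 0.969, edgeR's quasi-likelihood test). Of 14 striatal projection neuron genes, 12 were tested, 0 were called and 9 lay below 0, with a median of -0.25. Ebf1, a factor of striatal neurons, had 3.18 and 4.14 CPM in cKI and 4.59 and 6.48 in WT. Ikzf1 stood at 1.08 and 1.38 against 1.98 and 1.89 CPM. Ppp1r1b, which encodes DARPP-32 and was the striatal gene with the highest FPKM, overlapped between the groups, with 39.9 to 51.6 CPM.

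Of 20 interneuron genes, 18 were tested, 0 were called and 12 lay above 0, with a median log2 fold change of 0.05. Their summed level was 528 CPM in each cKI library and 497 and 545 CPM in the WT libraries. Pvalb and Vip, markers of interneuron types that mature later, had at most 1 count in any library. Cxcr4, a receptor that guides migrating interneurons and is also made by cortical progenitors, lay between 30.95 and 44.95 CPM. Satb1 had 88.2 and 82.4 CPM in cKI and 98.9 and 99.8 in WT, a log2 fold change of -0.22 ± 0.08 (SE; unadjusted p = 0.0198, edgeR's quasi-likelihood test). Adarb2, which marks interneurons of the caudal ganglionic eminence, had 1.08 and 1.66 against 1.93 and 2.47 CPM. Nos1 overlapped between the groups.

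All 7 genes of GABA handling were tested, 0 were called, and their median log2 fold change was -0.04. Slc6a11, a GABA transporter found mainly in glia, had 9.76 and 8.11 CPM in cKI and 11.5 and 14.5 in WT, a log2 fold change of -0.54 ± 0.18 (SE). Slc12a5, the chloride exporter of maturing neurons, had 15.8 and 16.6 CPM against 11.4 and 13.2, a log2 fold change of 0.39 ± 0.14 (SE). Their unadjusted p-values were 0.0139 and 0.0192, and the adjusted p was 0.969 for each (edgeR's quasi-likelihood test). Slc12a2, the chloride importer of immature neurons, had 32.6 and 31.3 against 34.1 and 37.5 CPM.

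**Figure D3:**
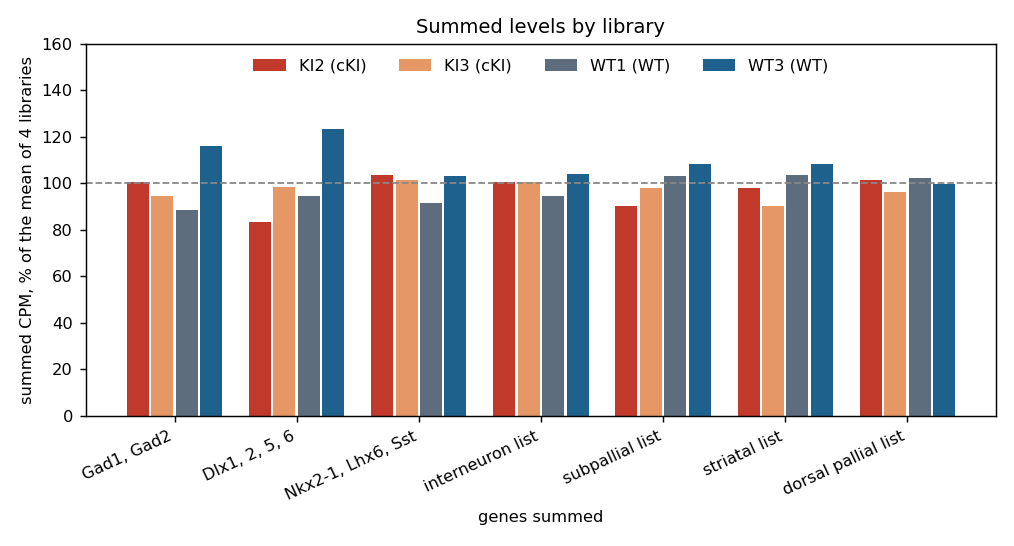
Summed CPM of each set of genes in each library, as a percentage of the mean of the 4 libraries, with bars from 0 and no error bars. The 4 Dlx genes range from 83.6% in KI2 to 124% in WT3, while the dorsal pallial list stays between 96.2% and 102%.

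Taking the 9 genes together, their summed level was 278 and 298 CPM in the libraries KI2 and KI3 and 279 and 349 CPM in WT1 and WT3. WT1 lay with KI2, and WT3 stood above the other three. The mean was 288 ± 13.9 CPM (SD, n = 2) in cKI and 314 ± 49.5 (SD, n = 2) in WT, a log2 ratio of -0.12 that is smaller than the spread of the WT libraries, whose log2 SD was 0.23. By role, the Dlx genes summed to 135, 159, 152 and 199 CPM, and the 3 genes of the medial ganglionic eminence to 101, 99.4, 89.7 and 101 CPM. The Dlx sum was 133% and 160% of the latter in the cKI libraries and 170% and 197% in WT. The 2 roles were thus in different proportion in each library.

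The dorsal pallial list, 14 genes of the glutamatergic lineage from Pax6 to Slc17a7, was set beside the members within each library. Its sum was 4230, 4008, 4261 and 4164 CPM in KI2, KI3, WT1 and WT3, and the 9 GABAergic genes amounted to 6.58%, 7.44%, 6.56% and 8.39% of it. Neurod6 had the largest part in this sum, with a mean of 1068 CPM. Single genes were less steady than the sum. Both cKI libraries lay above both WT libraries for 6 genes and below them for 3. Over all tested genes these shares were 17.3% and 16.9%. Of the 14 genes, 0 were called. Neurog1, Slc17a7 and Emx2 had an unadjusted p under 0.05 (edgeR's quasi-likelihood test), with log2 fold changes of 0.34, 0.21 and 0.18. Of all tested genes, 4.6% had such a p.

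Among markers of other cell types, the 3 meningeal genes and Ttr had higher values in both cKI libraries than in both WT libraries. Of 12 such genes, these 4 lay above and another 5 lay below WT in both cKI libraries. Over all tested genes the shares were 17.3% above and 16.9% below. Of the 12 genes, 0 were called. An unadjusted p under 0.05 (edgeR's quasi-likelihood test) was reached by 6, of which 4 were higher in cKI, and by 4.6% of all tested genes. Among these 4, Ttr passed the filter on low counts only through the cKI libraries, where it is higher, so its p is a description. Ttr, of the choroid plexus, had 116 and 956 counts in cKI and 0 and 4 in WT, while Folr1, the other choroid plexus gene, overlapped with 0.511 and 1.10 CPM in cKI and 0.170 and 0.918 in WT. The meningeal genes Col1a1, Col1a2 and Dcn summed to 13.1 and 10.5 CPM in cKI and 2.89 and 5.28 in WT. Summed red blood cell genes lay between 265 and 430 CPM, with KI3 lowest, and the endothelial pair between 37.3 and 40.3 CPM. The microglial pair C1qb and Cx3cr1 summed to 7.49 and 8.55 CPM in cKI and 11.2 and 11.7 in WT. The part of these cells in the values of Dlx2 and Nkx2-1 was not tested.

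**Figure D4:**
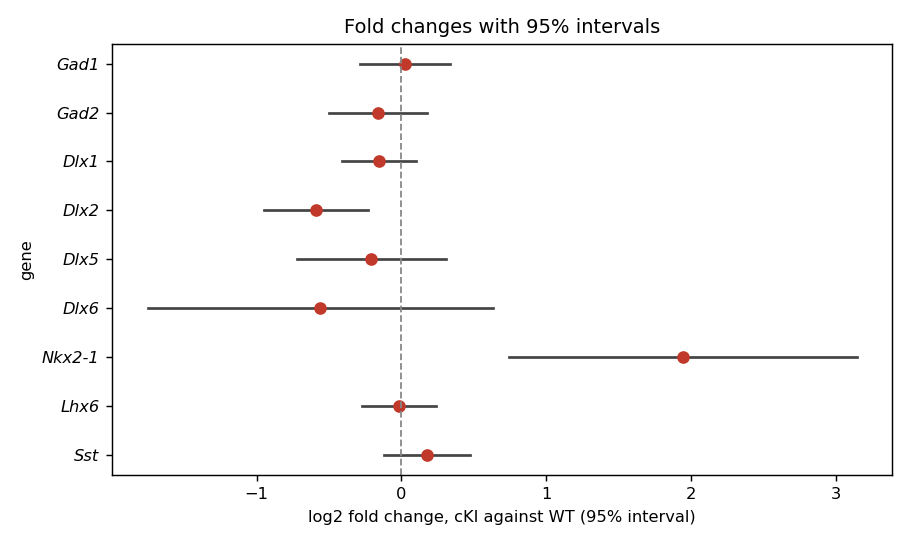
Log2 fold change of cKI against WT for each of the 9 genes (points) with the 95% interval of edgeR's quasi-likelihood fit (lines), and a dashed line at no change. The interval of Dlx2 lies below 0 and that of Nkx2-1 above 0 before adjustment for the number of genes, and the other 7 include 0. Nkx2-1 passed the filter on low counts only through the cKI libraries.

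The genes whose levels followed the summed members most closely were sought among 11104 other genes with a mean count of at least 100. The measure was the root mean square distance between log2 CPM profiles centred on their mean over the 4 libraries. The nearest were Amn1, Chic2, Cxx1b, Slain1 and BC002059, at distances of 0.01 to 0.02, and none of them belongs to the lists above. A flat profile lay at 0.13, and 3723 genes were nearer than that, so a profile over 4 libraries does not single out genes of the lineage.

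Sequence shared with other genes made up a small part of the member transcripts, which does not give the share of reads. Of the distinct words of 31 bases in the transcripts of each member, 9.88% for Dlx6, 5.84% for Dlx1 and 4.01% for Gad1 also occur in transcripts of other genes on either strand, and for the other 6 members the share was at most 2.26%. For Dlx5 and Sst it was 0%. Dlx1as shares 335 exonic bases with Dlx1 on the opposite strand and had 109 to 126 counts against at least 1737 for Dlx1. Dlx6os2 shares 104 exonic bases with Dlx6 and had at most 5 counts. The strand setting of the counting is not given in the sources used here, so reads of these pairs may not be told apart.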

How the data were processed

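Total RNA of E15 tissue was sequenced on an Illumina HiSeq 2500, and the deposited table holds the raw counts that the authors made, not normalized, for 2 cKI and 2 WT libraries. The submitters' processing notes name Bowtie2 2.2.3, TopHat2 2.0.12, HTSeq 0.6.0 and the build mm9. Yet its coordinates are of GRCm38, since 24486 of 26433 genes have the same position in GENCODE M21, so the build of the alignment is uncertain. Columns carry a genotype but no single labelled sample. The table's mean counts, fold changes and p-values of the authors were not used.

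edgeR 4.0.16 in R 4.3.3 kept 15786 genes by its default filter, scaled them by TMM and tested cKI against WT with the quasi-likelihood test and Benjamini-Hochberg adjustment over all tested genes. SE is the log2 fold change divided by the square root of F. FPKM uses exon lengths of GENCODE M21. Fits were tested on simulated data. DESeq2 1.42.0 and 11 other settings were alternatives. The members and lists were chosen with earlier results of these data known. Text names all members, and per list the called genes, the gene of highest FPKM and the 3 with the smallest p. Lhx8, Isl1, Pvalb, Vip, Drd1, Rgs9, Folr1, Dcn, Nr2f2, C1qb and Cx3cr1 were named after their values were seen. Some genes that the rule would name are not reported here.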

Additional observations from a re-analysis of the deposited data

How the results depend on the processing

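Of 107 refits of single members over 12 alternatives, 95 kept their direction and their side of the threshold. The 2 that gained a call were Dlx2 without KI3 and without WT1. Direction turned in 10, all of them fits without 1 library. With 1 library left out, the log2 fold change ranged from -0.13 to 0.21 for Gad1 (-0.03 without KI2), -0.36 to 0.073 for Gad2, -0.32 to 0.035 for Dlx1, -0.51 to 0.13 for Dlx5 (0.03 without KI2), -1.15 to 0.40 for Dlx6, -0.18 to 0.12 for Lhx6 (0.05 without WT3) and -0.0085 to 0.33 for Sst. The turned values were those without WT3 for Gad2, Dlx1, Dlx5 and Dlx6, without KI3 for Lhx6 and Sst, and without WT1 for Gad1. Nkx2-1 stayed between 1.55 and 2.50 and Dlx2 between -0.83 and -0.40. Nkx2-1 could not be fitted with at least 10 counts in every library.

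The number of called members ranged from 0 to 1 with 1 library left out and was 0 otherwise. Of all tested genes, 19 were called, against 54 by the likelihood ratio test, 6 where each library had to hold 10 counts, 11 after leaving out the sex chromosomes, and 46 to 71 with 1 library left out, where the lone library is assumed to vary like the other group. In those fits the called genes ranged from 0 to 1 for the subpallial, interneuron and striatal lists and from 2 to 3 for the non-neural list. The gained interneuron gene was Nr2f2 without WT3. The likelihood ratio test called 3 non-neural genes, among them Ttr, which passed the filter only through the cKI libraries. The log2 ratio of the summed members lay between -0.28 and 0.046 with 1 library left out, and it was 0.064 with the mean of log2 CPM in place of the sum, in which Nkx2-1 weighs as much as Sst. For the log2 ratio to the dorsal pallial sum, cKI minus WT was -0.083 with all libraries. It turned to 0.0049 without KI2, 0.095 without WT3 and 0.049 with the mean of log2 CPM. It was -0.17 without KI3 and -0.26 without WT1. For this ratio to the dorsal pallial sum, all moves were smaller than the spread of the libraries, 0.20. The log2 ratio of the summed members moved by more than its own spread, 0.17, without WT3 and with the mean of log2 CPM. Scaling by library size cancels in this ratio of sums and cannot change it. The cause of these changes was not tested.

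No paired analysis was made. Just 1 number, that of KI3 and WT3, occurs in both groups. The column numbers do not follow the sample titles, so a shared number was not taken as a pair. At this depth and group size, a member near 1 CPM such as Nkx2-1 or Dlx6 gives few counts.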

Other observations

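Nr2f2, a nuclear receptor of the caudal ganglionic eminence that caudal cortical progenitors also express, differed widely within each group. It had 33.8 and 74.7 CPM in the libraries KI2 and KI3 and 18.8 and 57.0 in WT1 and WT3, so that KI3 and WT3 stood above KI2 and WT1. Its log2 fold change of 0.52 ± 0.45 (SE) was not called (adjusted p = 0.976, edgeR's quasi-likelihood test). Without WT3, which leaves 1 WT library, the log2 fold change was 1.53. Lhx9, a factor of the medial pallium and the diencephalon, had the same library order within groups on a smaller scale, with 27.8 and 34.2 CPM in cKI and 22.6 and 29.4 in WT. Tcf7l2, a thalamic marker, had 7.95 and 8.94 against 11.7 and 10.1 CPM.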
